A study of Cucumis sativus and Manihot esculenta and Brachypodium distachyon with 34 samples.

Results

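CG gene body methylated (gbM) genes that were also highly expressed in leaf were examined in the grass *Brachypodium distachyon*. A gene was included if it is marked CG-gbm in the part of the study's gene classification used here and had a value of at least 20 FPKM (fragments mapped to a transcript, scaled by its length and by the mapped fragments of the library) in the leaf RNA-seq library. This gave 145 genes of 1999 classified genes. The classified genes are 6.31% of the 31694 genes in the expression table, so 145 is not a count for the whole genome. The 145 genes were chosen by their class and by their FPKM value, so both are described without a test. The library and the methylome behind the classes both come from leaf of the accession Bd21, the inbred line of the reference genome, with no treatment in the labels. The series compares leaf methylomes of many angiosperms, with RNA-seq of a few of them. There is 1 RNA-seq library and 1 methylome of *B. distachyon*, so no value has a replicate error and no difference could be tested against one. The expression table gives no fragment counts, so the depth behind a single value is unknown.

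GbM is methylation of CG sites inside a transcribed gene without methylation at CHG or CHH sites, where H is any base but G. In *A. thaliana* it is copied at each DNA replication by the maintenance methyltransferase MET1, is typically low at the start and the end of the gene, and is common in genes expressed at moderate levels in most tissues. CHG methylation is maintained by chromomethylases together with a histone mark of silent chromatin, and genes that carry it resemble silenced transposons. What gbM does for a gene is still debated, since some plants lack it. In the study, CG-gbm genes had more methylated CG sites in their coding sequence than a common expected rate, without such an excess at CHG or CHH sites, and needed reads at 20 or more CG sites. Unmethylated (UM) genes had no excess, CHG genes had one at CHG but not CHH sites, and CHH genes had one at CHH sites. How genes with fewer covered sites were placed is not given in the sources used here. The methylation calls themselves were not analysed here, so the classes could not be checked against them. The files list identifiers without gene names, and no annotation of this species was used, so the genes are given by identifier with no function. For the same reason the leaf label could not be checked against marker genes, and no sequence is shown.

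In these counts a larger share of the gbM genes than of the other classes was at this level, and gbM genes made up more of the highly expressed genes than of all genes. Of 566 gbM genes, 145 had an FPKM of 20 or more (25.6%), against 202 of 1256 UM genes (16.1%), 10 of 169 CHG genes (5.92%) and 0 of 8 CHH genes. Over all classified genes the share at that level was 17.9%, and over the whole expression table it was 13.9%. Read the other way, gbM genes made up 145 of the 357 classified genes at FPKM 20 or more (40.6%), against 28.3% of all classified genes and 25.6% of those under FPKM 20. UM genes were still the larger class at this level, with 202 genes (56.6%). Among gbM and UM genes alone, the gbM share at FPKM 20 or more was 41.8%, against 31.1% at all levels.

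The gbM share did not keep growing with expression. It was 108 of 829 genes under FPKM 1 (13%), 31.0% from 1 to 2, 33.6% from 2 to 5, 43.6% from 5 to 10, 44.1% from 10 to 20 and 46.9% from 20 to 50. From 50 to 100 it was 29.7% (19 of 64 genes), and at 100 or more it was 32.5% (26 of 80 genes). Taken as 2 groups, gbM genes were 45 of 144 genes at FPKM 50 or more (31.2%) and 100 of 213 genes from 20 to 50 (46.9%). At 50 or more the gbM share was thus close to that over all classified genes, 28.3%, and it was larger from 5 to 50, where 285 of 635 genes (44.9%) were gbM. The range from 5 to 50 joins the ranges with the highest gbM shares listed above, so its share only sums them up. UM genes took 51.6% of the genes from 20 to 50 and 63.9% of those at 50 or more. CHG genes took 140 of the 829 genes under FPKM 1 (16.9%) and 1.41% of those from 20 to 50. All 8 CHH genes were under FPKM 1. These shares compare genes within 1 library, and gene length, which enters FPKM and the number of CG sites tested, was not available here. Its part in these shares was not tested.

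**Figure D1:**
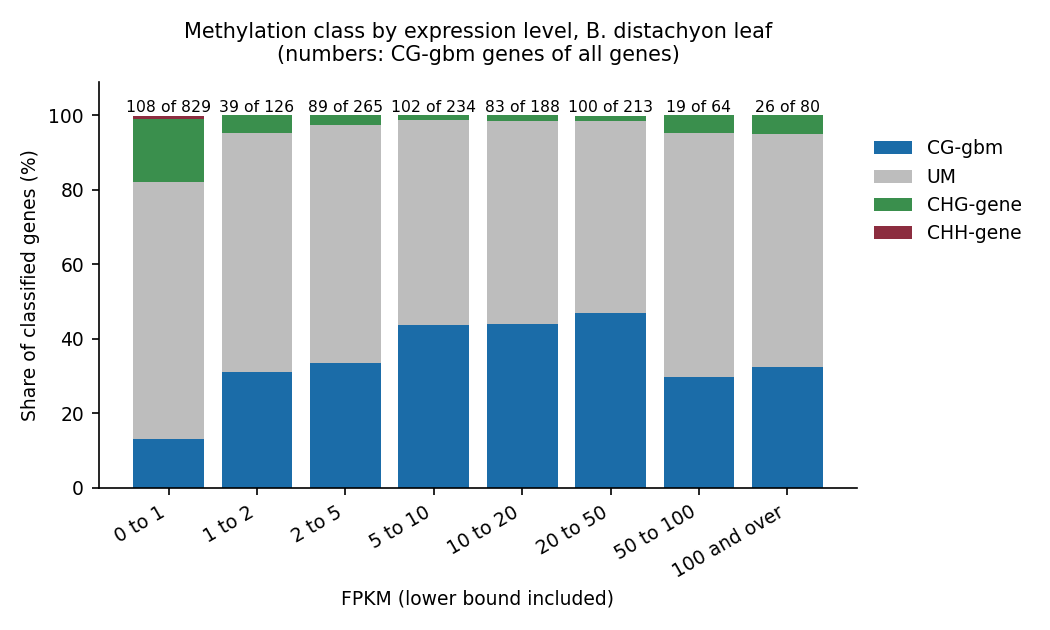
Share of each methylation class (y axis, in %) among the classified *B. distachyon* genes of each FPKM range (x axis), with the number of CG-gbm genes of all genes above each bar. The CG-gbm share (blue) was 46.9% from FPKM 20 to 50 and 29.7% from 50 to 100.

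Most of the 145 genes were close to the lower limit, with a long tail above it. Their FPKM ran from 20.1 to 11557.5, with a median of 38.0 and the middle 50% of genes between 25.1 and 57.4. On the log2(FPKM + 1) scale the median was 5.29. The 202 UM genes at FPKM 20 or more reached further up in their middle range, with a median of 44.8 and the middle 50% between 29.0 and 98.5. Of the gbM genes, 100 were from 20 to 50 (69.0%), 19 from 50 to 100 (13.1%) and 26 at 100 or more (17.9%), while 50 of the UM genes were at 100 or more (24.8%). In all classified genes, 7.2% were at 50 or more and 4.0% at 100 or more. The 421 gbM genes under FPKM 20 had a median of 4.38, so expression within the class spread over the whole range, and 63 of the 566 gbM genes (11.1%) were listed at 0. Of the UM genes 26.2% were listed at 0, and of the CHG genes 71.6%.

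One gene stood far above the others. Bradi1g15290 had an FPKM of 11557.5, which was 14 times the next gbM gene and the 5th highest value of the whole table. It alone held 53.2% of the summed FPKM of the 145 genes and 1.71% of the sum over the whole table. With it, the 145 genes held 37.3% of the summed FPKM of all classified genes, and 21.8% without it on both sides of the ratio. Second came Bradi1g10150 with 826, then Bradi1g07170 with 616, Bradi1g06851 with 348, and Bradi1g12230 with 338. The only one of the 145 genes on an unplaced scaffold, Bradi0011s00100, was sixth with 310. The rest of the 10 highest were Bradi1g03720 with 307, Bradi1g04220 with 304, Bradi1g04070 with 296 and Bradi1g11290 with 268. These 10 genes held 69.8% of the summed FPKM of the group and were the ones among the highest 316 values of the table, the top 1%, which began at 240. The highest 5% of the table took in 37 of the 145 genes. The rule admits only genes at FPKM 20 or more, which are 4392 genes or 13.9% of the table. Places this high were thus partly set by the rule and are no trait of gbM genes.

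A lower group of well expressed genes followed, at less than 200. Bradi1g04950 had an FPKM of 197, Bradi1g13290 of 189, Bradi1g08907 of 164, Bradi1g06821 of 163 and Bradi1g06220 of 149. From 119 to 138 there were Bradi1g03180, Bradi1g06800, Bradi1g09400, Bradi1g04140, Bradi1g11150, Bradi1g13640 and Bradi1g02510. The last of the 25 highest were Bradi1g08310 with 113, Bradi1g07140 with 107 and Bradi1g13630 with 105. At the other end, the lowest genes inside the limit were Bradi1g10490 (20.1), Bradi1g01710 (20.3), Bradi1g15377 (20.4), Bradi1g04710 (20.4) and Bradi1g00990 (20.4). The gbM genes just outside it were Bradi1g05320 (19.9), Bradi1g10810 (19.8), Bradi1g13580 (19.8), Bradi1g00567 (19.8) and Bradi1g12140 (19.7). Nothing separates these neighbouring values except the limit.

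The highest value of a gbM gene was also above that of the other classes. The highest CHG gene was Bradi1g05750 with an FPKM of 2666, the highest UM gene Bradi1g06890 with 1628, and the highest CHH gene Bradi1g12475 with 0.924. Without Bradi1g15290 the order was different, as the next gbM gene, at 826, was below both the highest CHG and the highest UM gene. The 10 CHG genes at FPKM 20 or more included 4 at 100 or more.

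The classified genes lie at one end of chromosome 1. They comprise 1987 of its 9196 genes (21.6%), in the order of their identifiers, and 12 genes on 5 unplaced scaffolds. Of the 145 genes, 144 were on chromosome 1. Of the classified genes 17.9% were at FPKM 20 or more, against 14.8% of the genes further along chromosome 1, 14.3% on chromosome 2, 15.1% on chromosome 3, 10.4% on chromosome 4 and 11.3% on chromosome 5. Positions are given as the order of identifiers, since no coordinates of the genome version were used.

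Highly expressed gbM genes were found along the whole stretch, at uneven density. In consecutive blocks of 200 classified genes, their number ran from 8 to 20. It was 20 in the second block (from Bradi1g01692 to Bradi1g03307), in the third (from Bradi1g03313 to Bradi1g05037) and in the seventh (from Bradi1g09910 to Bradi1g11750). The fourth block, from Bradi1g05050 to Bradi1g06366, had the fewest, 8, and the eighth had 9. The fourth block also had the fewest gbM genes of any level, 41, and the most CHG genes, 29, with 32 genes at FPKM 20 or more. Of the highly expressed genes in a block, gbM genes were between 8 of 32 in the fourth block and 53.8% in the ninth. In the first block they were 12 of 23 (52.2%), the block with the fewest highly expressed genes. Of the gbM genes in a block, between 19.5% and 33.9% were at FPKM 20 or more, the highest share being in the third block. The median FPKM of the highly expressed gbM genes was between 35.8 and 50.7 in the first 9 blocks and 25.4 in the tenth, the block that holds Bradi1g15290. Genes of 100 or more were found in each of the 10 blocks, with 5 each in the third and the fifth. In the first block the only such gene was Bradi0011s00100, at 310, whose scaffold sorts before chromosome 1 by identifier. The highest of the chromosome 1 genes of the group in that block was Bradi1g00750, at 49.7.

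**Figure D2:**
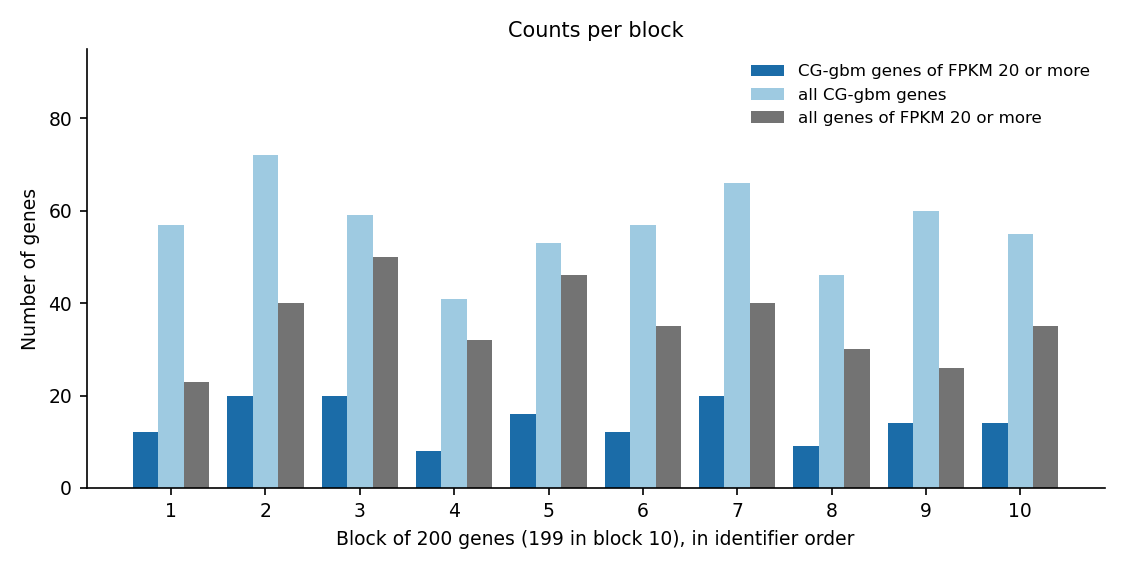
Number of genes (y axis) in each of 10 consecutive blocks of classified genes in identifier order (x axis), for CG-gbm genes of FPKM 20 or more (dark blue), all CG-gbm genes (light blue) and all genes of FPKM 20 or more (grey). The dark blue bars lie between 8 and 20 genes and the fourth block is the lowest.

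On chromosome 1 a median of 8 other genes lay between one highly expressed gbM gene and the next, and the middle 50% of the 143 gaps held 3 to 15.5 genes. The widest gap, between Bradi1g12300 and Bradi1g12880, held 73 genes. Of these, 15 were gbM genes under FPKM 20, 6 were CHG genes and 3 were at FPKM 20 or more. Over all classified genes, 28.3% were gbM, 8.45% were CHG and 17.9% were at FPKM 20 or more. A gap holds no gene of the group by definition, so all its gbM genes are under FPKM 20. Of the 144 genes, 118 had no other gene of the group directly next to them. The other 26 (17.9% of all 145) lay in 7 pairs and 4 runs of 3. Directly next to such a gene were 13.7% of all classified genes, 16.8% of the UM genes at FPKM 20 or more and 14.5% of the gbM genes under 20.

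The runs of 3 were made up of moderate levels with one exception. Bradi1g02580, Bradi1g02590 and Bradi1g02597 had an FPKM of 40.1, 53.3 and 24.2. Bradi1g04850, Bradi1g04860 and Bradi1g04870 had 41.7, 31.9 and 21.1. Bradi1g15370, Bradi1g15377 and Bradi1g15390 had 22.5, 20.4 and 23.7, all close to the limit. In the remaining run, Bradi1g03180 with 138 stood beside Bradi1g03170 with 23.9 and Bradi1g03160 with 39.6. No run was longer than 3. The pair with the widest difference was Bradi1g04070, at 296, and Bradi1g04080, at 26.2, an 11.3-fold difference between adjacent genes.

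**Figure D3:**
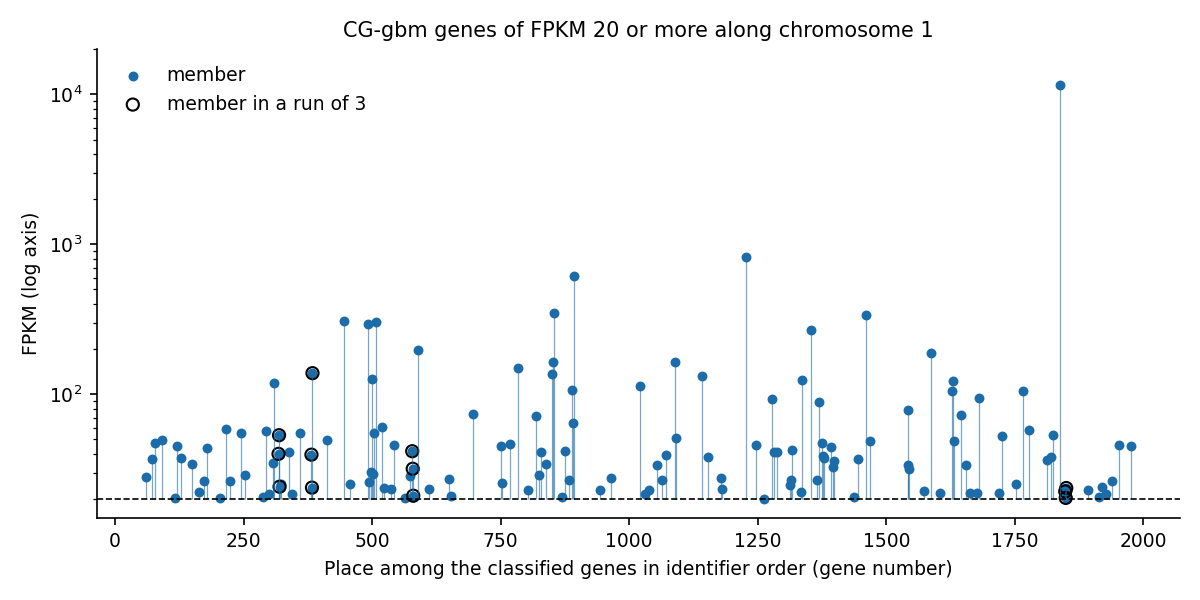
FPKM on a log axis (y axis) of the 144 CG-gbm genes of FPKM 20 or more on chromosome 1, by their place among the classified genes (x axis). Circles mark the genes in runs of 3, the dashed line is FPKM 20, and Bradi1g15290 is the point at 11557.5.

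The nearest gene on each side was then looked up in the whole expression table. The 145 genes had 289 such neighbours, whose level the rule did not use unless a neighbour belongs to the group as well. The neighbours had a median FPKM of 3.81, against 2.75 for the neighbours of gbM genes under FPKM 20, 4.15 for those of UM genes at FPKM 20 or more and 2.39 for those of all classified genes. The medians beside both groups of highly expressed genes were close to each other and above that of all genes. Leaving out neighbours that belong to the group, the medians were 2.45, 1.92, 2.93 and 1.75 in the same order, so the order of the groups was unchanged. On the log2(FPKM + 1) scale the median beside the 145 genes had a 95% interval of 1.7 to 2.68, which included the 1.76 of all classified genes. With neighbours of the group left out it was 1.19 to 2.34, which included 1.46. These intervals treat genes as independent draws. Of the 289 neighbours, 68 (23.5%) were at FPKM 20 or more, against 18.3% of the neighbours of gbM genes under 20, 20.8% of those of UM genes at 20 or more, and 17.8% of those of all classified genes. These 68 comprised 30 gbM, 36 UM and 2 CHG genes. With neighbours that belong to the group left out, 14.7% were at FPKM 20 or more, against 11.8% beside gbM genes under 20, 13% beside UM genes at 20 or more and 11.3% beside all classified genes. A neighbour that lies between a pair of these genes was counted for both, and the difference between the groups could not be tested with 1 library.

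By gene, 58 of the 145 (40.0%) had at least 1 neighbour at FPKM 20 or more, against 32.8% of the gbM genes under 20, 38.1% of the UM genes at 20 or more and 32.1% of all classified genes. In 10 of the 145 (6.9%) both neighbours were at that level, against 3.8% of the gbM genes under 20, 3.47% of the UM genes at 20 or more and 3.3% of all classified genes. A neighbour of class gbM was found for 72 of 145 (49.7%), against 51.3%, 51.0% and 48.1% in the same order, so the share was close to the background of 48.1%. The neighbours' classes were 31.8% gbM, 60.6% UM, 6.92% CHG and 0.692% CHH, and those of all classified genes were 28.4%, 62.9%, 8.29% and 0.378%. A CHG or CHH gene stood next to 21 of the 145 genes (14.5%), against 14.3% of gbM genes under 20, 8.42% of UM genes at 20 or more and 15.9% of all classified genes. Of the 22 neighbours of this kind, 17 (77.3%) were listed at 0, close to the share of such neighbours of all classified genes, 72.7% (250 of 344). At FPKM 20 or more there were 2 (9.09%), against 4.36% (15 of 344). Bradi1g10150, the second highest gene at 826, is one of the 21 genes, as its next gene, Bradi1g10161, is a CHG gene listed at 0.

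Some of these genes stood beside genes listed at 0. At least 1 neighbour was listed at 0 for 55 genes (37.9%), against 45.1% of the gbM genes under 20, 36.6% of the UM genes at 20 or more and 44.5% of all classified genes. All neighbours were listed at 0 for 8 genes (5.52%), against 7.35% of all classified genes. Bradi1g15290, at 11557.5, lay between Bradi1g15280, listed at 0, and Bradi1g15295 at 0.0585, both UM. Bradi1g13290, at 189, had UM genes listed at 0 on both sides. Bradi1g06220, at 149, was next to Bradi1g06210 at 1.32 and Bradi1g06225, which was listed at 0.

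Other genes of the group lay beside a gene that was also well expressed. Bradi1g06851, at 348, was followed by the UM gene Bradi1g06861 at 330. Bradi1g07170, at 616, was preceded by the UM gene Bradi1g07160 at 201, which in turn followed the pair Bradi1g07140 and Bradi1g07150 at 107 and 64.5. These 4 consecutive genes, 3 gbM and 1 UM, were all above FPKM 50. Of the 25 highest genes, 9 had a neighbour at FPKM 20 or more, beside 40.0% of all 145 and 32.1% of all classified genes. Among the 25, only Bradi1g04140, at 126, was below a neighbour, the UM gene Bradi1g04150 at 149. The largest neighbour of any of the 145 was that of Bradi1g04710, which was itself just above the limit at 20.4 and stood between a UM gene at 1457 and another at 21.7.

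Further out the surroundings varied with no steady trend. Over the 5 places before and the 5 after the 145 genes, the share of genes at FPKM 20 or more was between 18.1% and 26.9%, and 17.7% to 17.9% around all classified genes. The highest share was at the place directly after, 26.9%, and it was 20.1% at the place directly before. Identifiers run along the chromosome and not with the gene's strand, so before and after are not upstream and downstream. Around UM genes of FPKM 20 or more the share was between 17.8% and 23.8%, with the highest at the place directly before. The ranges of both groups overlapped for most of their length.

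**Figure D4:**
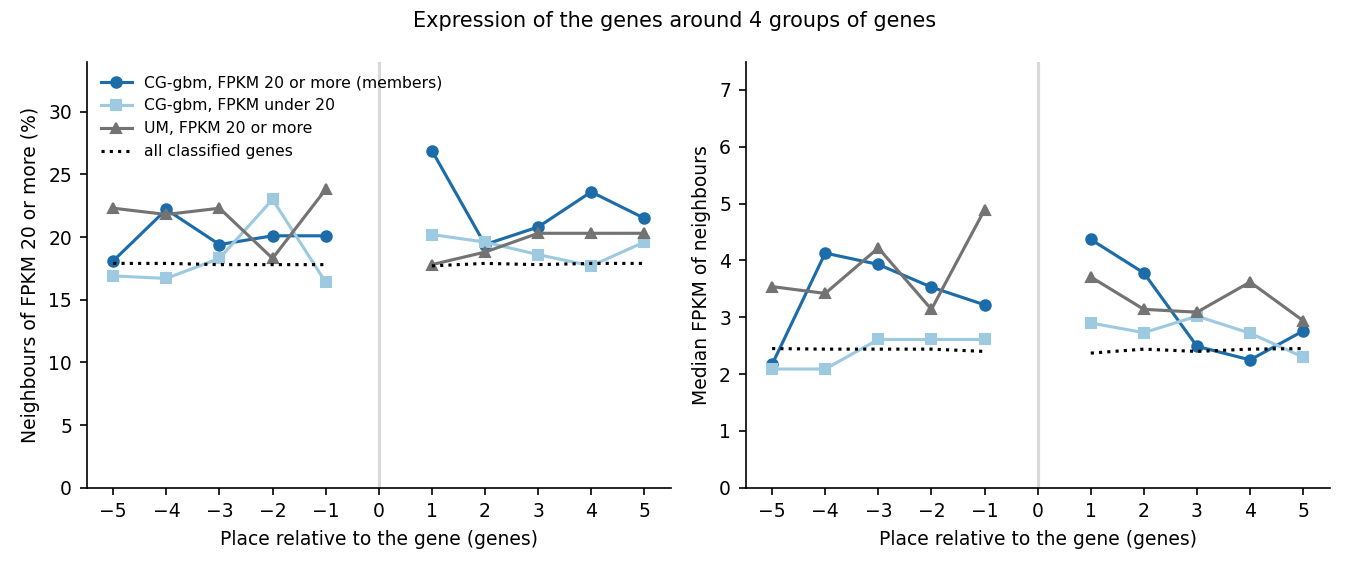
Share of neighbours of FPKM 20 or more (left panel, y axis in %) and median FPKM of the neighbours (right panel) at each of 5 places before and after a gene (x axis, in genes), for CG-gbm genes of FPKM 20 or more (dark blue circles), CG-gbm genes under 20 (light blue squares), UM genes of FPKM 20 or more (grey triangles) and all classified genes (dotted line). The dark blue points of the left panel lie between 18.1% and 26.9%.

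The identifiers carry further features that the rule did not use. Most locus numbers end in 0, and other endings fall between them. Of the 145 genes, 17 (11.7%) had a number with another ending, against 24.7% of the gbM genes under FPKM 20, 16.3% of the UM genes at 20 or more, 77.4% of the CHG genes under 20 and 33.7% of all classified genes. In the whole table, 13.5% of the genes at FPKM 20 or more had such a number and 38.7% of all genes. The transcript that the expression table lists for a gene has a number above 1 for 32 of the 145 genes (22.1%). This was 27.1% of the gbM genes under FPKM 20, 18.3% of the UM genes at 20 or more, 12.0% of the UM genes under 20 and 16.3% of all classified genes. At either level the share with such a number was higher in gbM than in UM genes. A gene listed with transcript 1 may have others as well, and whether a number above 1 goes with several transcripts was not looked up in an annotation. These are therefore not the shares of genes with several transcripts. The highest transcript numbers were 7, for Bradi1g02310 at an FPKM of 20.5, and 5, for Bradi1g04820 at 28.4.

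Of the other species with RNA-seq, *Brassica rapa* is the one with a class table in the part used here, and it offered no like group. Of its 1999 classified genes 3 were CG-gbm, with an FPKM of 21.3, 3.53 and 0.666, while 285 of the 1999 were at FPKM 20 or more. The libraries were normalised separately, so these values are set beside those of *B. distachyon* as they are.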

How the data were processed

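Leaf RNA-seq values deposited by the authors were used from 1 *B. distachyon* and 1 *B. rapa* library. Per the submitters' processing notes, reads were trimmed with Trimmomatic 0.32, aligned with TopHat2 2.0.13 and quantified with Cufflinks 2.2.1 with a reference annotation. The deposited values are FPKM, 1 per gene, and as an exact 0 may be an estimate that failed, such genes are called listed at 0. The study lists genome version 2.1 for *B. distachyon*. Classes came from the study's gene classification, of which the part used here covers 1999 genes. Identifiers were matched after removing the transcript number, and each classified gene had 1 value. A further 11 genes lie between the classified ones without a class here and entered by their FPKM as neighbours.

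Counts, shares and medians were computed with Python 3.11.15, pandas 2.3.3, NumPy 2.4.6, SciPy 1.17.1 and Matplotlib 3.10.9. Neighbours are the nearest identifiers on the same chromosome or scaffold. The functions were tested on simulated data. No test was run, as there is no replicate, genes are not replicates and the class table is held in part. The group and the measures were chosen with earlier results of these data known. Named genes are the 25 highest, 5 on each side of the limit, the runs of 3 and the highest of each class. Genes named as neighbours, in pairs, at the widest gap or by transcript number were chosen after their values were seen. Planned lists by gene function, marker genes, protein lengths and promoter motifs were not run, since no annotation of this species was used. The other files of the series were not used here.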

Additional observations from a re-analysis of the deposited data

How the results depend on the processing

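Of 20 alternatives over 7 results, 10 stayed within 1.5 times a count, or within the 95% binomial interval of a share or median, which treats genes as independent draws. Among these 10, the highest row of an identifier in place of the sum could not differ, as no rows shared an identifier. The alternatives limited to chromosome 1 could hardly move a share, as 144 of the 145 genes lie there. The limit on FPKM decided the size of the group: at FPKM 10 or more it held 228 genes (40.3% of gbM genes, against 27.3% of all classified genes) and at 50 or more 45 genes (7.95%, against 7.2%), so at 50 the share was close to that of all classified genes. The gbM share of the genes past the limit was 31.2% at FPKM 50 or more. At least 1 neighbour past the same limit was found for 50% of the group at FPKM 10, against 46.1% of all classified genes, and for 17.8% at 50, against 13.5%. With the 3 nearest genes on each side in place of 1, 88.3% had a gbM neighbour, against 83.3% of all classified genes, and 69.7% had a neighbour at FPKM 20 or more, against 65.2%. With neighbours listed at 0 left out, their median log2(FPKM + 1) was 3.07 in place of 2.26. Leaving out neighbours that belong to the group, an alternative chosen after seeing the data, gave 1.79. No paired analysis was possible because there is 1 library and no result comes from a test. The lack of fragment counts, of a replicate and of gene lengths limits every value given here.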
